A study of Mus musculus with 12 samples.

Results

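The response measured here is that of mouse embryos whose samples are labelled p53 knockout, 3 h after irradiation. It was read from 4 of the 12 RNA-seq samples of the series, chosen by their labels: 2 samples titled as knockout at 3 h and 2 titled as knockout without treatment. All were embryos at embryonic day 9.5, given in the labels as p53 -/-, with no word on the allele or on whether a sample was a single embryo or a pool. The irradiated embryos received 30 Gy of X-rays at 5 Gy per minute inside the pregnant mouse, and the untreated embryos were not irradiated. Beside them stand 2 samples labelled knockout at 1 h and, labelled p53 +/+, 2 untreated samples, 2 at 1 h and 2 at 3 h. Values are TPM, transcript abundances corrected for length and scaled to a fixed sum in each sample. They keep no read depth, so the depth is unknown and no counting error can be given. The paired values in the text are those of the samples numbered 1 and 2 by their labels, in that order. Where 2 such pairs follow each other without a group, the former is untreated and the latter 3 h, both labelled knockout. Each change is the difference of mean log2(TPM + 1), a scale that makes changes of low genes look smaller. Brackets after a gene give that change with its standard error (SE) and the adjusted p of limma. The series title names p21 (Cdkn1a), ccng1, foxo3b and fbxw7, and the comparison asks how these and other genes move after irradiation where p53 is labelled absent.

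The protein p53 is a transcription factor that the ubiquitin ligase MDM2 keeps scarce in undamaged cells. DNA breaks activate the kinases ATM and CHK2, p53 accumulates, and it binds response elements made of paired decamers near genes for cell cycle arrest, DNA repair and cell death, and near Mdm2 itself. A cell without p53 protein is known to lack this induction. The early neural tube is known as a tissue of the midgestation embryo that is prone to p53-dependent death after radiation.

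Trp53 (ENSMUSG00000059552), which encodes p53, checks the label. It stood at 265 and 79.1 TPM in the untreated samples labelled knockout and at 242 and 219.8 TPM in those at 3 h, where the samples labelled wild type held 114 and 211 TPM untreated and 93.7 and 68.03 TPM at 3 h. The transcript was thus present in all 4 samples labelled knockout, and its level at 3 h was above both samples labelled wild type at that time. The untreated samples were split under both labels. That labelled knockout and numbered 2 lay near the samples labelled wild type at 3 h. That labelled wild type and numbered 2 lay near those labelled knockout at 3 h. At 1 h the sums over Trp53, Trp63 and Trp73 were 254.4 and 214.2 TPM under the knockout label and 119.1 and 72.15 TPM under the wild-type label. The change of Trp53 from untreated to 3 h under the knockout label was not past the threshold (limma: 0.67 ± 0.535 SE, adjusted p = 0.524). Without the untreated sample labelled knockout and numbered 2 its sign turned, to -0.2. TPM of a whole gene cannot show whether a protein is made. The p53 targets described below rose in the samples labelled knockout and 0 genes were called in those labelled wild type, which goes against the genotype labels. Whether labels were exchanged, as a whole or for single samples, was not tested, nor was whether the untreated samples of a label share a genotype. Every direction below is that of the samples so labelled.

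Between 13724 and 14357 genes reached 1 TPM in a sample. Y-linked transcripts such as Eif2s3y (36.96 and 0 TPM in the untreated samples labelled knockout) were near 0 in both samples at 3 h (0 and 0.04 TPM), while Xist stood at 0 and 51.2 TPM untreated and 108 and 96.9 TPM at 3 h. The sex-linked transcripts thus differed between the untreated sample numbered 1 and the other samples compared, and their part in the results was not tested. The 1 h samples numbered 2 stood apart from their partners, with correlations of 0.935 and 0.938 over genes within the 1 h groups against 0.969 to 0.974 in the others. Without both of them 1019 genes rose and 1074 fell in the comparison below. Nothing says that samples of a group come from separate litters, and p-values measure only the spread between these samples. In bulk tissue, fewer cells of a type and less RNA per cell cannot be told apart.

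Of 15535 genes tested, 971 rose (6.25%) and 912 fell (5.87%) at 3 h (limma, Benjamini-Hochberg adjusted p under 0.05), and 3914 had an unadjusted p under 0.05. The rises were the larger changes: 206 genes rose and 30 fell at least 4-fold, and 23 rose and 0 fell at least 16-fold. The untreated level differed with direction, with a median of 3.44 TPM for genes that rose, 24.9 TPM for genes that fell and 13.1 TPM for all genes tested. Of 5032 genes under 5 TPM before irradiation 10.9% rose and 2.09% fell, whereas of 4666 genes between 20 and 100 TPM 2.96% rose and 8.96% fell. The filter bears on these shares: 201 genes tested were under 1 TPM in all samples but the 3 h samples labelled knockout, and 174 of these rose. Of 1101 tested genes under 1 TPM in both untreated samples labelled knockout, 267 rose. Such genes below, among them Gdf15, Psmb9, Cd80, Trp73, Cdkn2b and Fosl1, can have passed the filter through their 3 h samples alone. Their calls and the list counts that hold them carry that limit. Each of the 1883 called genes moved in the same direction within the samples numbered 1 and within those numbered 2, and its 2 groups did not overlap, as was so for 19% of all genes with 3 h above and 31.6% with 3 h below. A lack of overlap given for called genes below is therefore a description and no further support for their calls.

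**Figure D1:**
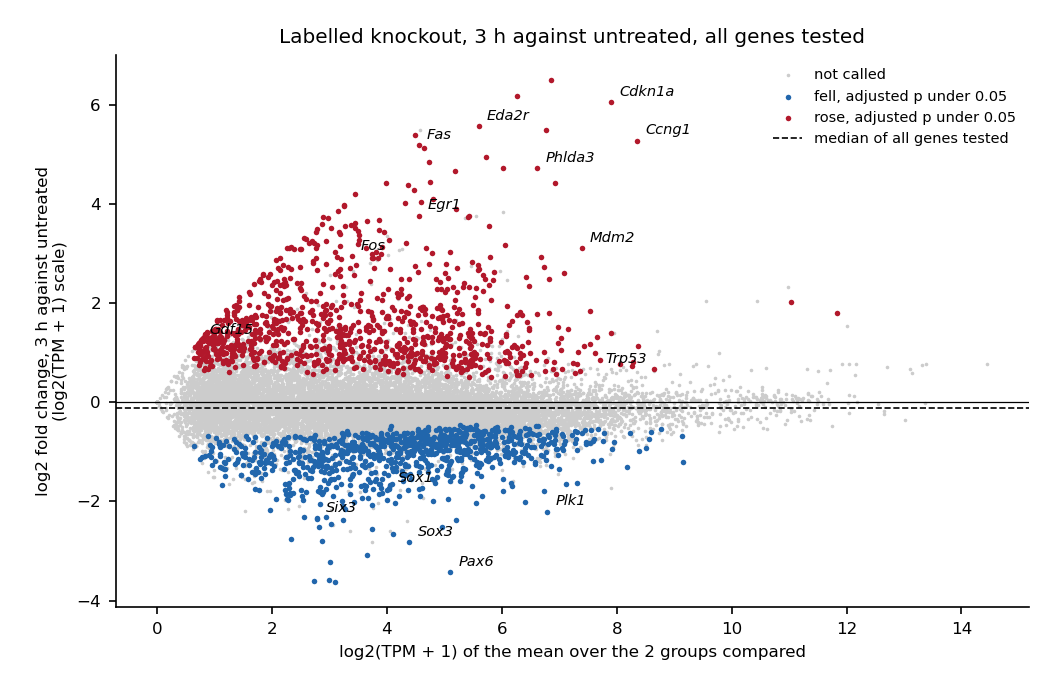
Log2 fold change at 3 h against untreated in the samples labelled knockout, plotted against log2(TPM + 1) of the mean of both groups, with 1 point per gene tested. Red points (971) rose and blue points (912) fell at an adjusted p under 0.05, grey points were not called, and the dashed line is the median of all genes (-0.12). The rising genes reach 6.49 and the falling genes -3.63.

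The plot of fold change against level shows more genes below 0 than above it, with a median log2 fold change of -0.12 over all genes. With median-of-ratios size factors that median was -0.005, and 1345 genes rose and 763 fell, which made 63.8% of all calls rises, where the deposited scaling gave 51.6%. Small changes are therefore to be read relative to that shift. Fitted on the 4 samples alone, with fewer degrees of freedom, limma called 365 higher and 101 lower. Without the untreated sample numbered 1 or 2, or the 3 h sample numbered 1 or 2, it called 539, 645, 564 and 573 higher and 402, 310, 256 and 410 lower, a list of fits whose order (untreated numbered 1 and 2, 3 h numbered 1 and 2) is kept below, and 462 rising and 205 falling genes kept their call in each of these 4 fits. With the replicate number as a block 1721 rose (11.1%) and 2813 fell (18.1%), shares against which the block counts of lists below are to be read, and every gene called without the block was among them.

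Many targets of p53 rose. The 9 p53 lists (feedback, arrest, mitochondrial death, death receptors, repair, metabolism, autophagy, secreted and surface proteins, and others) hold 132 tested genes, of which 69 rose and 0 fell, with a median log2 fold change of 0.97 against -0.12 for all genes. Without each of the 4 samples in turn, 52 to 57 rose and 0 fell. The other 63 did not pass the test. With the replicate block 78 rose and 7 fell.

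Genes that act on p53 itself were among them. Of 14 feedback genes 8 rose, with a median of 1.2. Mdm2, which marks p53 for degradation, stood at 34.9 and 33.1 TPM untreated and at 294 and 306 TPM at 3 h (limma: 3.1 ± 0.151 SE, adjusted p = 2.24e-05). Ppm1d, the phosphatase WIP1 that removes damage-dependent phosphates from p53, stood at 23.3 and 23.8 TPM untreated and at 63.4 and 64.01 TPM at 3 h (limma: 1.4 ± 0.122 SE, adjusted p = 0.000211). In both genes the samples within a group lay close together and the groups were far apart. Trp53inp1, a stress protein that promotes p53 phosphorylation, stood at 3.15 and 4.11 TPM before and at 164 and 261 TPM at 3 h. Zfp385a, which binds p53 and shifts it towards arrest genes, stood at 42.8 and 43.2 TPM and then at 164 and 138 TPM. Both rose (5.5 and 1.78 on the log2 scale, adjusted p = 8.25e-05 and 0.000526 by limma). The related gene Trp73, which encodes p73, was near 0 in the untreated samples (0 and 0.24 TPM) and stood at 3.65 and 2.28 TPM at 3 h (limma: 1.81 ± 0.235 SE, adjusted p = 0.00165). It missed the threshold when only the 4 samples were fitted (limma adjusted p = 0.0501).

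Cell cycle arrest genes held the highest median of the p53 lists (2.33), with 11 of 15 members called, all higher. Cdkn1a (ENSMUSG00000023067), the kinase inhibitor p21, stood at 6.88 and 5.38 TPM untreated, 79.3 and 76.2 TPM at 1 h and 499 and 444 TPM at 3 h (limma: 6.06 ± 0.187 SE, adjusted p = 2.27e-06). Its samples labelled wild type stayed between 5.91 and 6.96 TPM untreated and at 3 h. Plk2, a polo-like kinase of the p53 response, stood at 18.9 and 26.8 TPM and then at 165 and 194 TPM. Gtse1, a microtubule-associated protein that moves p53 out of the nucleus, stood at 34.01 and 39.99 TPM and then at 197 and 266 TPM. Both rose (2.94 and 2.6, adjusted p = 0.000231 and 0.000212 by limma). Gtse1 is also a gene of the G2 phase, and in the samples labelled wild type it was at 34.2 and 46 TPM untreated and 22.1 and 22.5 TPM at 3 h. The difference of its responses between the labels was called (3.41 ± 0.321 SE, limma adjusted p = 0.000941). Ptprv, a phosphatase gene, was at 0.03 and 0.03 TPM in the untreated samples and at 49.7 and 35.8 TPM at 3 h, and Cdc42bpg, a kinase gene of the actin skeleton, at 3.04 and 2.78 TPM and then at 34.7 and 36 TPM.

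**Figure D2:**
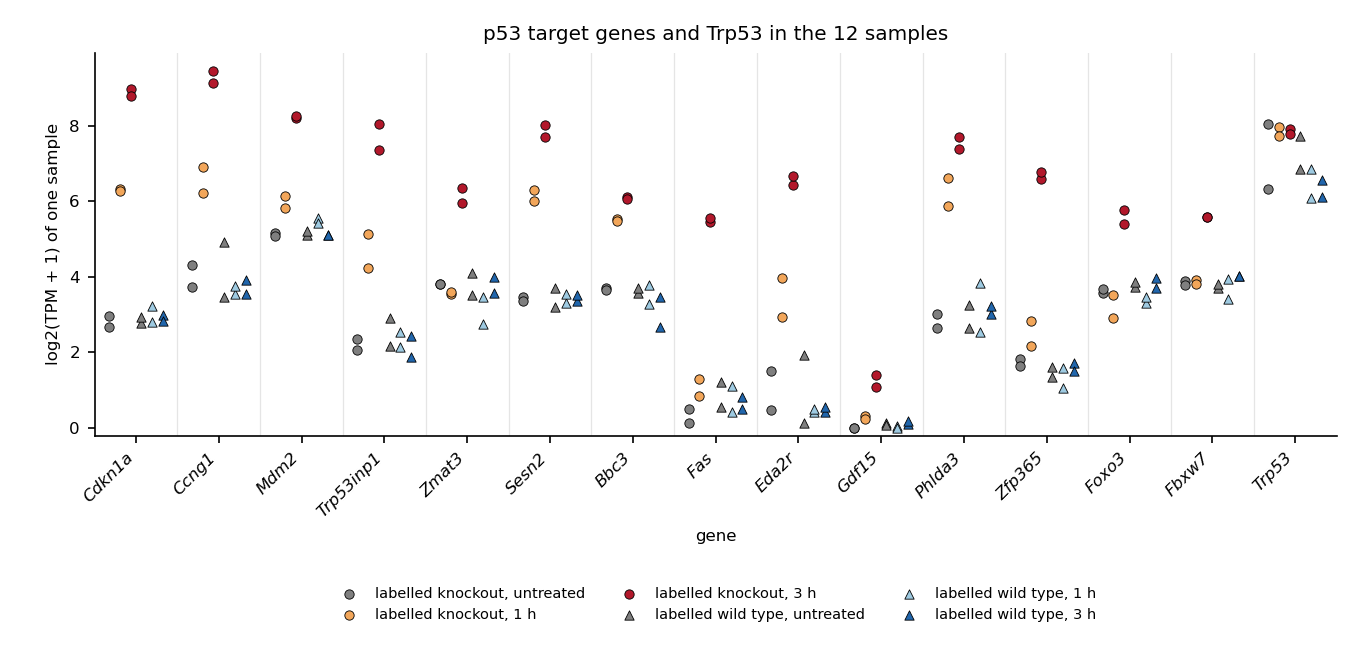
Log2(TPM + 1) of p53 target genes and of Trp53 in all 12 samples, 1 mark per sample, circles for samples labelled knockout and triangles for samples labelled wild type. In the genes from Cdkn1a to Fbxw7 both red circles (labelled knockout, 3 h) lie above all other samples, as for Cdkn1a at 499 and 444 TPM, and in Trp53 they lie among them.

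Promoters of these genes are shown to set the letters of the p53 motif beside the values. They were taken from RefSeq on GRCm38.p6, an earlier build than the one of the deposited values, as windows from 250 bases before to 50 bases after a start, and written 5′ to 3′ on the strand of the gene. Capitals mark each exact match to the consensus decamer of p53, the motif of which the p53 response element holds a pair, searched on both strands. Decamers with any mismatch to the consensus stay in small letters and are not counted. Only windows that hold an exact match are shown, and any other window of the same gene is left out.
Cdkn1a: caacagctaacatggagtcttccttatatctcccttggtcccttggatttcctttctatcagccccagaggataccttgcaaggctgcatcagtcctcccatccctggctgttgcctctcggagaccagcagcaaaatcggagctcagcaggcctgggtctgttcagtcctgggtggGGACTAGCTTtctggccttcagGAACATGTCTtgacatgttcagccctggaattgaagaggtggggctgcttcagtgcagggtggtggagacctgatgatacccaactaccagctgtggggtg
Ccng1: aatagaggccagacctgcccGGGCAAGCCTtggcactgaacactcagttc
Mdm2: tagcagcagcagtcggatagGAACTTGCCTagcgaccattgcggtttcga
Polk: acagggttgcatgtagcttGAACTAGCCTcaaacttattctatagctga
Gtse1: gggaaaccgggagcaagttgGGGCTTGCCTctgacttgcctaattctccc
The Cdkn1a window (chr17:29090729-29091028, plus strand) holds 2 exact matches 12 bases apart, within the spacing searched for a pair. The unmarked decamer directly after the second of them departs from the consensus at a single base. Which of these decamers form a response element was not tested. The stretches of Ccng1 (chr11:40755442-40755491, minus strand), Mdm2 (chr10:117710915-117710964, minus strand), Polk (chr13:96519389-96519437, minus strand) and Gtse1 (chr15:85859935-85859984, plus strand) each hold a single exact match. In Ccng1 and Gtse1 the unmarked decamer directly before it departs from the consensus at a single base. A pair of exact matches at most 13 bases apart occurs in 24 of 32851 RefSeq promoters (0.0731%), and an exact match in 8.36%. Of the p53 lists, 107 of 132 genes had a promoter in the table (81.1%), with 136 windows, 16.9% of which held an exact match. Among the 57 of 69 rising members with a promoter, 21.9% of 73 windows did. Most windows of rising members therefore held no exact match, and a match is a description of letters, not of binding.

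Genes of mitochondrial cell death rose in 7 of 15 cases (median 1.1). Pmaip1, which encodes the BH3-only protein NOXA, had the largest rise of all genes tested, from 1.88 and 1.23 TPM to 238 and 217 TPM (limma: 6.49 ± 0.271 SE, adjusted p = 9.85e-06). Bbc3, which encodes the BH3-only protein PUMA, stood at 12.01 and 11.7 TPM untreated and 68.7 and 66.2 TPM at 3 h (limma: 2.41 ± 0.258 SE, adjusted p = 0.000598). Apaf1, the scaffold of the apoptosome, stood at 9.62 and 13.8 TPM and 78.3 and 115 TPM (limma: 2.94 ± 0.382 SE, adjusted p = 0.00165). In each of these 3 genes both samples at 3 h lay far above both untreated samples. Perp, a membrane protein of p53-dependent death, rose as well (6.17 and 9.45 to 40.9 and 55.5 TPM), and so did Ei24, a protein of the endoplasmic reticulum (75.3 and 83.3 to 284 and 292 TPM). Fdxr, ferredoxin reductase, lost its call without the untreated sample numbered 1 (limma adjusted p = 0.0557) and without the 3 h sample numbered 2 (limma adjusted p = 0.0577).

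Death receptors and their adaptors rose in 5 of 10 cases (median 0.79), and 5 were called without each of the 4 samples in turn. Fas was close to 0 in the untreated samples (0.1 and 0.43 TPM) and at 42.7 and 46.5 TPM at 3 h (limma: 5.18 ± 0.319 SE, adjusted p = 4.4e-05). Eda2r, the receptor of ectodysplasin A2, stood at 1.83 and 0.39 TPM and 85.7 and 101.4 TPM. Tnfrsf10b, the TRAIL receptor, stood at 5.52 and 4.39 TPM and 74.7 and 83.7 TPM. The adaptor Pidd1, which assembles the caspase-2 platform, stood at 8.63 and 11.4 TPM and 69.5 and 84.3 TPM (limma: 2.83 ± 0.191 SE, adjusted p = 5.95e-05). In all 4 the samples at 3 h lay above every untreated sample by several times its level. Among 14 other genes of caspases and the apoptosome 2 rose, where 6.25% of all genes did. Among these was Dffb, the DNase that fragments chromatin in apoptosis, from 6.82 and 7.56 to 53.8 and 57.9 TPM (limma: 2.8 ± 0.202 SE, adjusted p = 8.25e-05). The list had 2, 1, 1 and 2 rises without each sample in turn. Of 9 other genes of the Bcl2 family 0 rose and 1 fell (2 with the block): Bmf, a BH3-only gene, stood at 25.4 and 28.9 TPM untreated and 3.94 and 8.71 TPM at 3 h. Its adjusted p was 0.00734 by limma, and 0.0527 without the untreated sample numbered 2.

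Metabolic targets rose in 9 of 18 cases (median 0.99). Dcxr, a carbonyl reductase, stood at 3.81 and 3.59 TPM untreated and at 109.9 and 139 TPM at 3 h (limma: 4.73 ± 0.378 SE, adjusted p = 0.00014). Slc19a2, a thiamine transporter, stood at 2.81 and 4.3 TPM and at 52.1 and 83.9 TPM (limma: 3.9 ± 0.369 SE, adjusted p = 0.000313). Cpt1c, a carnitine palmitoyltransferase, stood at 5.47 and 3.36 TPM and at 44.4 and 45.6 TPM (limma: 3.11 ± 0.245 SE, adjusted p = 0.000131). None of the 3 genes had a sample at 3 h near the untreated level. Ddit4, the mTOR inhibitor REDD1, Aldh4a1, a dehydrogenase of proline breakdown, and Ephx1, an epoxide hydrolase, rose with fold changes of 2.49, 2.33 and 2.37 on the log2 scale.

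Of 13 DNA repair targets 3 rose, against 6.25% of all genes, with a list median of 0.28. With the block 5 rose and 2 fell. Polk, the translesion polymerase kappa, stood at 5.58 and 5.51 TPM untreated and 38.3 and 40.3 TPM at 3 h (limma: 2.62 ± 0.224 SE, adjusted p = 0.000201), and Ercc5, the excision repair nuclease XPG, at 18.2 and 15.3 TPM and 81.7 and 84.3 TPM (limma: 2.25 ± 0.168 SE, adjusted p = 9.72e-05). The third, Mgmt, which removes alkyl groups from DNA, was lost without the untreated sample numbered 1 or 2 (limma adjusted p = 0.129 and 0.0513) and without the 3 h sample numbered 2 (limma adjusted p = 0.124). Genes of double-strand break signalling and repair, which act upstream of p53 or beside it, had 2 calls among 28, both higher, a share near the 6.25% of all genes, and a median of -0.23. With the block 2 rose and 5 fell, where 11.1% of all genes rose and 18.1% fell. Chek2, the kinase that phosphorylates p53, stood at 19.97 and 18.8 TPM and 43.1 and 42.9 TPM (limma: 1.11 ± 0.148 SE, adjusted p = 0.00186), with an adjusted p of 0.0524 when only the 4 samples were fitted. The list had 1, 1, 1 and 1 rises without each sample in turn. The 10 autophagy targets had a median of -0.08 (3 rose and 1 fell with the block), and their 2 calls, Dram1 and Ulk1, were both lost without any of the 4 samples, with adjusted p-values between 0.052 and 0.129.

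Secreted and surface targets rose in 8 of 13 cases (median 1.01). Lif, a cytokine of the interleukin-6 family, stood at 0.25 and 0.04 TPM untreated and 18.1 and 13.1 TPM at 3 h (limma: 3.85 ± 0.3 SE, adjusted p = 0.000127). Epha2, an ephrin receptor, stood at 5.4 and 6.25 TPM and 26.9 and 33.2 TPM (limma: 2.18 ± 0.233 SE, adjusted p = 0.000595). Cd80, a costimulatory ligand of T cells, stood at 0.1 and 0 TPM and 3.12 and 3.54 TPM. All 3 were separated between the groups, Cd80 from a level near 0. Gdf15, a stress cytokine, is listed at 0 in both untreated samples and stood at 1.13 and 1.66 TPM at 3 h (limma adjusted p = 0.0026, and 0.055 fitted on the 4 samples alone). Of 15 genes of antigen presentation 2 rose: Tap1, the peptide transporter, from 0.44 and 0.34 to 44.4 and 50.9 TPM (limma: 5.13 ± 0.189 SE, adjusted p = 6.92e-06), and Psmb9, an immunoproteasome subunit, which is listed at 0 in both untreated samples and stood at 3.12 and 1.44 TPM at 3 h. Psmb9 missed the threshold on the 4 samples alone (limma adjusted p = 0.0724). The list median was 0.09, and 6.25% of all genes rose. In Cd80, Gdf15 and Psmb9 the 3 h samples alone can have met the filter, which bears on their calls.

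Further targets without a shared role rose in 16 of 24 cases (median 1.79). Zfp365, a zinc finger gene, went from 2.52 and 2.15 TPM to 95.8 and 108 TPM (limma: 4.95 ± 0.27 SE, adjusted p = 3.03e-05), and Mapkapk3, a stress kinase, from 1.29 and 1.46 TPM to 49.9 and 51.6 TPM (limma: 4.45 ± 0.181 SE, adjusted p = 9.49e-06). Def6, a guanine nucleotide exchange factor, went from 2.39 and 1.75 TPM to 58.5 and 44.5 TPM. Outside the lists, the 20 largest rises included Prrg4 (0.54 and 1.02 to 40.9 and 60.5 TPM), Ddit4l (1.18 and 2.41 to 61.9 and 75.5 TPM), Fam196a (0.31 and 0.53 to 29.1 and 29.3 TPM), Mab21l3 (0.75 and 1 to 33.3 and 43.3 TPM) and Svop (0.03 and 0.21 to 20.2 and 18.98 TPM). Their log2 fold changes lay between 4.2 and 4.85, and the highest untreated value among these 5 genes, 2.41 TPM in Ddit4l, was far below the lowest value at 3 h, 18.98 TPM in Svop.

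The other genes of the series title were measured as well, with mouse Foxo3 taken for the foxo3b of the title. Ccng1 (ENSMUSG00000020326), cyclin G1, which recruits phosphatase 2A to MDM2, stood at 18.8 and 12.3 TPM untreated, 73.5 and 120.2 TPM at 1 h and 563 and 703 TPM at 3 h (limma: 5.28 ± 0.448 SE, adjusted p = 0.000197). Foxo3 (ENSMUSG00000048756), a forkhead factor restrained by AKT, stood at 10.97 and 11.9 TPM, 6.55 and 10.5 TPM and 41.5 and 53.5 TPM (limma: 1.96 ± 0.232 SE, adjusted p = 0.00106). Fbxw7 (ENSMUSG00000028086), the receptor of an SCF ubiquitin ligase, stood at 13.9 and 12.9 TPM, 14.2 and 13.1 TPM and 46.9 and 47.4 TPM (limma: 1.74 ± 0.184 SE, adjusted p = 0.000575). Ccng1 was already above its untreated level in both samples at 1 h, whereas the samples of Foxo3 at 1 h lay below the untreated ones and those of Fbxw7 among or just above them. The fold change at 1 h was 2.55 for Ccng1, -0.41 for Foxo3 and 0.02 for Fbxw7, against the same untreated samples as at 3 h. For the SCF and FOXO lists that follow, the shares of all genes were 6.25% rising and 5.87% falling. Of 12 genes of SCF ligases Fbxw7 alone rose and 1 fell (5 with the block), Fbxo5, an inhibitor of the anaphase-promoting complex, which lost its call without the untreated sample numbered 1 (limma adjusted p = 0.0721), without the 3 h sample numbered 2 (limma adjusted p = 0.0675) and with size factors (limma adjusted p = 0.0574). Of 14 genes of FOXO factors and their targets 5 rose and 0 fell (7 rose and 1 fell with the block). Apart from Foxo3, these calls (Foxo1, Klf2, Txnip and Klf4) held in fewer fits, and the list had 2, 2, 1 and 1 rises without each sample in turn.

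The same contrast in the samples labelled wild type gave a different picture. limma called 0 genes there at an adjusted p under 0.05, with 524 (3.37%) at an unadjusted p under 0.05 and a lowest adjusted p of 0.051. These 0 calls do not mean that nothing changed: the G2 and mitosis list had a median of -0.61 there. The replicate block was not fitted for this contrast. The 132 p53 targets had a median of 0.05. The 2 responses share no samples, so their difference can be tested: 403 genes had a higher response under the knockout label (2.59%) and 133 a lower one (0.856%). Of the 971 rising genes 398 were among the former and of the 912 falling genes 131 among the latter, with 0 in the opposite direction. Of the p53 targets 54 of 132 had a higher response and 0 a lower one. The difference was 5.995 ± 0.264 SE, limma adjusted p = 4.66e-05 for Cdkn1a, 3.16 ± 0.213 SE, limma adjusted p = 0.000364 for Mdm2 and 6.11 ± 0.384 SE, limma adjusted p = 0.000258 for Pmaip1. With the replicate block 930 genes were higher (5.99%) and 1148 lower (7.39%). Leaving out the untreated and 3 h samples labelled knockout gave totals of 260, 308, 280 and 275 in place of 536, and leaving out those labelled wild type, in the same order, 256, 228, 224 and 249.

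**Figure D3:**
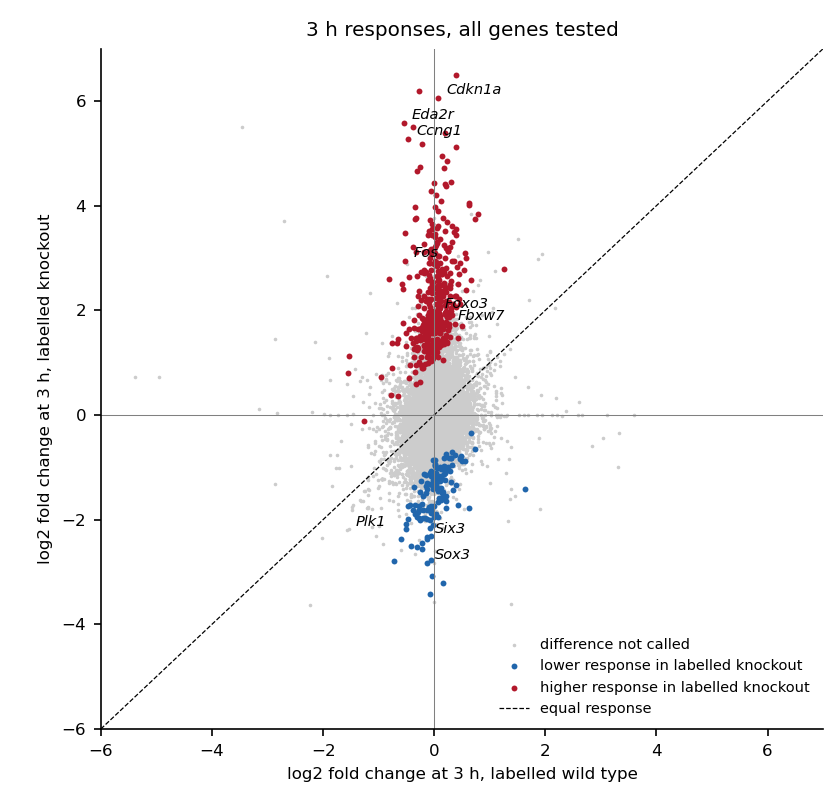
Log2 fold change at 3 h against untreated in the samples labelled knockout (vertical axis) and in those labelled wild type (horizontal axis), 1 point per gene tested, on the log2(TPM + 1) scale. Red (403) and blue (133) points are genes whose responses differ at an adjusted p under 0.05, and they lie along the vertical axis, with Cdkn1a at 6.06 and 0.06. Plk1 is grey and low on both axes (-2.2 and -1.56).

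Many genes of G2 and mitosis fell. Of 34 tested, 17 fell and 0 rose, with a median of -0.9, and 12, 9, 9 and 12 fell without each sample in turn. With the replicate block 29 fell. Plk1, the kinase that drives mitotic entry, stood at 171 and 190.04 TPM untreated and at 36.2 and 40.8 TPM at 3 h (limma: -2.2 ± 0.147 SE, adjusted p = 5.79e-05). Prc1, which bundles microtubules of the midzone, stood at 92.9 and 105 TPM and 25.6 and 30.3 TPM (limma: -1.79 ± 0.161 SE, adjusted p = 0.000244). Kif2c, a kinesin that depolymerises microtubules, stood at 74.8 and 70.1 TPM and 25.98 and 24.4 TPM (limma: -1.49 ± 0.141 SE, adjusted p = 0.00032). Cenpf, a kinetochore protein, stood at 46.2 and 56.1 TPM and 16.4 and 18.3 TPM (limma: -1.5 ± 0.184 SE, adjusted p = 0.00127). In all 4 genes both samples at 3 h lay below both untreated samples. In the samples labelled wild type the list had a median of -0.61 with 0 of 34 called (limma), and Plk1 stood at 165 and 191 TPM untreated and 56.7 and 62.3 TPM at 3 h. A difference between the responses was called for 0 of the 34 genes (limma), and that of Plk1 was -0.64 ± 0.209 SE, limma adjusted p = 0.166. Pif1, a helicase, and H1f0, a linker histone gene, had the same form: Pif1 stood at 9.26 and 11.8 TPM untreated and 1.26 and 1.23 TPM at 3 h under the knockout label, and at 9.16 and 12.6 TPM and 2.03 and 1.74 TPM under the wild-type label. The corresponding values of H1f0 were 213 and 206 TPM, 69.3 and 63.9 TPM, 226 and 218 TPM and 94.2 and 86.7 TPM.

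Promoters of G2 genes are known to carry the cell cycle homology region (CHR, TTTGAA) and CCAAT boxes, read by the DREAM and NF-Y complexes. Stretches of 3 members that fell are shown with every match to TTTGAA and CCAAT, on both strands, in capitals. Windows of these genes without a match would not be shown.
Plk1: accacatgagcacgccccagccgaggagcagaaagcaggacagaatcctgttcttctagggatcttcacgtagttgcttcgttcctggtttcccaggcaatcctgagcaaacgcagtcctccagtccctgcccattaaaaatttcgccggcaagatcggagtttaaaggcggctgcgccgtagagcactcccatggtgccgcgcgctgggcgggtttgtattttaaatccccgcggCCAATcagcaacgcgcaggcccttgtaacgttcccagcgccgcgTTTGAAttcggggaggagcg
Aurka: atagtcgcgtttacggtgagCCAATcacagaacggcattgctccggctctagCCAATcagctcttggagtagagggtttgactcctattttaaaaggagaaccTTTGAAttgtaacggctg
Prc1: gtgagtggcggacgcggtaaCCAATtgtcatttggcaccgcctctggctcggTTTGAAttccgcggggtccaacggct
The windows are chr7:122159185-122159484, plus strand, chr2:172370521-172370641, minus strand and chr7:80294394-80294471, plus strand (RefSeq, GRCm38.p6). Each holds a CHR and at least 1 CCAAT, a combination found in 6.95% of the 32851 RefSeq promoters, where 17.9% hold TTTGAA and 37.4% CCAAT. No share is drawn for the list as a whole, because only 27 of 34 genes (79.4%) had a promoter in the table. Of the 13 falling members with a promoter, 9 held both motifs and the others did not, so the 3 shown do not stand for all.

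Among 28 genes of DNA replication and entry into S phase 0 rose and 1 fell (Ccne1, cyclin E1), with a median of -0.13, and with the block 2 rose and 3 fell. Ccne1 lost its call without the untreated sample numbered 1 (limma adjusted p = 0.0991), without the 3 h samples numbered 1 and 2 (limma adjusted p = 0.0813 and 0.0681) and with size factors (limma adjusted p = 0.0727). Among the 6 genes for CDK inhibitors there were 3 rises and 1 fall, where 12.1% of all genes were called. Cdkn1a is given above. Cdkn1c, the inhibitor p57, stood at 287 and 329 TPM and 484 and 495 TPM and rose by the fit to all samples (limma adjusted p = 0.0304) but not without each sample in turn (limma adjusted p = 0.172, 0.0759, 0.128 and 0.13). Cdkn2b, the inhibitor p15, stood at 0 and 0.07 TPM untreated and 4.86 and 4.02 TPM at 3 h (limma: 2.39 ± 0.19 SE, adjusted p = 0.000135), whereas Cdkn1b, the inhibitor p27, stood at 26.9 and 30.2 TPM and 9.48 and 9.89 TPM (limma: -1.47 ± 0.147 SE, adjusted p = 0.000438). Both differed from the wild-type label in their responses (limma adjusted p = 0.00209 and 0.0171). Ribosomal protein genes had 0 calls among 24 and a median of 0.06 (limma; 0 with the block as well).

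Immediate early genes, which respond to growth factors and stress within minutes without new protein synthesis, rose in 10 of 19 cases and fell in 0 (median 0.9). Egr1, a zinc finger factor, stood at 2.14 and 2.28 TPM untreated, 2.37 and 1.89 TPM at 1 h and 49.7 and 36.6 TPM at 3 h (limma: 3.77 ± 0.258 SE, adjusted p = 6.35e-05). Fosl1, a subunit of AP-1, stood at 0.24 and 0 TPM, 0.39 and 0 TPM and 10.4 and 9.54 TPM (limma: 3.3 ± 0.21 SE, adjusted p = 4.56e-05). Arc stood at 0.77 and 0.76 TPM, 1.37 and 0.97 TPM and 6.22 and 6.47 TPM (limma: 2.06 ± 0.189 SE, adjusted p = 0.000266). In these 3 genes the samples at 1 h lay near the untreated ones and the samples at 3 h far above them. Ccn1, a matricellular protein gene, stood at 24.3 and 28.03 TPM, 15.5 and 14.4 TPM and 69.3 and 71.6 TPM, below its untreated level at 1 h and above it at 3 h, and at 15.2 and 14.98 TPM in the samples labelled wild type at 1 h. Without each sample in turn 9, 9, 9 and 8 rose, and 8 of its members had a higher response than under the wild-type label.

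Lists of other stress pathways had 1 to 3 calls each, where 6.25% of all genes rose and 5.87% fell. Hmox1, heme oxygenase, an NRF2 target, stood at 15.8 and 16.7 TPM untreated and 68.1 and 79.96 TPM at 3 h (limma: 2.12 ± 0.181 SE, adjusted p = 0.000202) and was the only call among 8 NRF2 targets (2 rose with the block). Hspa1a, an inducible HSP70 gene, stood at 0.33 and 0.61 TPM and 7.53 and 6.24 TPM (limma: 2.42 ± 0.203 SE, adjusted p = 0.00018). Of 11 heat shock genes 2 rose, this gene and Hspa1b. The near-identical neighbour Hspa1b shares reads with it, so the split between them is uncertain. Icam1, an adhesion receptor and NF-kappaB target, stood at 2.01 and 2.84 TPM and 12.5 and 16.1 TPM (limma: 2.16 ± 0.271 SE, adjusted p = 0.00141), and 2 of 11 such targets rose (4 rose and 1 fell with the block). Genes of hypoxia and glycolysis fell in 3 of 15 cases with a median of -0.61. In 10 of the 15 both samples at 3 h lay below both untreated samples, where 31.6% of all genes did. The median was -0.5 at 1 h under the knockout label and -0.19 at 3 h under the wild-type label. With the block 8 fell. Hk2, hexokinase 2, stood at 70.6 and 51.7 TPM and 9.61 and 12.3 TPM (limma: -2.37 ± 0.23 SE, adjusted p = 0.000352), and at 45.8 and 48 TPM and 30.5 and 30.7 TPM under the wild-type label.

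Many genes of the developing nervous system fell under the knockout label. Of 17 markers of neural progenitors 12 fell and 0 rose, with a median of -1.3, and 10, 8, 9 and 9 fell without each sample in turn. Pax6 (ENSMUSG00000027168), a factor of the forebrain, eye and spinal cord, stood at 78.6 and 44.9 TPM untreated, 40.9 and 26.3 TPM at 1 h and 5.37 and 4.01 TPM at 3 h (limma: -3.42 ± 0.403 SE, adjusted p = 0.00102). Sox3, a SoxB1 factor of progenitors, stood at 34.8 and 36.7 TPM, 35.7 and 47.9 TPM and 4.03 and 4.34 TPM (limma: -2.83 ± 0.344 SE, adjusted p = 0.00124). Pou3f2, a POU factor, stood at 21.6 and 21.2 TPM, 15.1 and 10.8 TPM and 1.68 and 1.66 TPM (limma: -3.07 ± 0.275 SE, adjusted p = 0.000239). The samples at 3 h lay far below all other samples of either label in these 3 genes. Sox1 fell too, from 25.99 and 22.7 TPM to 6.7 and 6.42 TPM. The same markers had a median of -0.05 in the samples labelled wild type, where Pax6 was at 61.8 and 41.9 TPM untreated and 62.3 and 37.2 TPM at 3 h. The difference between the responses was called for 5 of the 17, all lower, with -3.34 ± 0.569 SE, limma adjusted p = 0.0161 for Pax6. Summed over the 17 genes, the level was 1086 and 1257 TPM untreated and 738 and 822 TPM at 3 h. Vim, the most abundant marker and no called gene, stood at 334 and 519.96 TPM and 393 and 536 TPM.

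**Figure D4:**
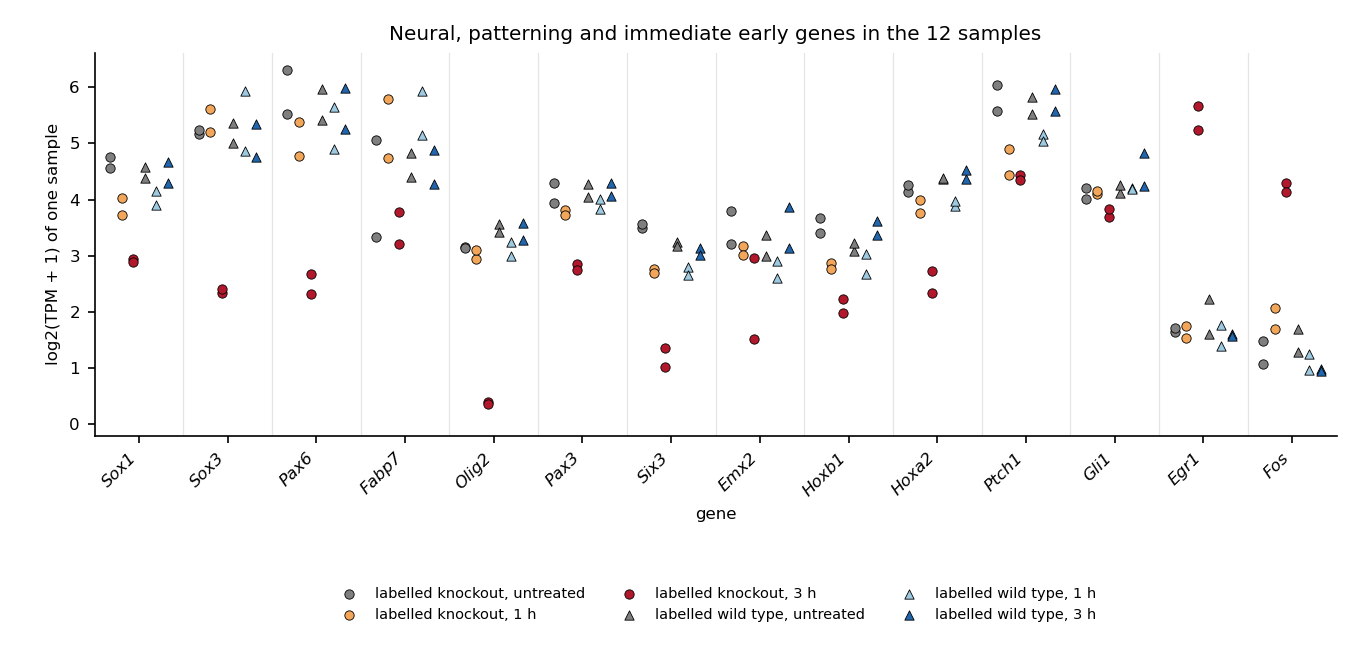
Log2(TPM + 1) of genes of neural progenitors, neural tube, brain regions, hindbrain Hox genes, hedgehog targets and immediate early genes in all 12 samples, 1 mark per sample, circles for samples labelled knockout and triangles for samples labelled wild type. For Pax6, Sox3, Olig2 and Six3 both red circles (labelled knockout, 3 h) lie below all other samples (Pax6 at 5.37 and 4.01 TPM), and for Egr1 and Fos above them.

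Genes that pattern the neural tube across its dorsoventral axis fell in dorsal, intermediate and ventral domains. Of 16 tested, 10 fell and 1 rose, with a median of -1.28, and 6, 9, 7 and 7 fell without each sample in turn. Olig2, the factor of the motor neuron domain, stood at 7.87 and 7.77 TPM untreated and 0.32 and 0.28 TPM at 3 h (limma: -2.76 ± 0.178 SE, adjusted p = 4.81e-05). Dbx1, of the intermediate domains, stood at 10.8 and 16.3 TPM and 0.33 and 0.76 TPM (limma: -3.22 ± 0.253 SE, adjusted p = 0.000131). Msx3, of the dorsal tube, stood at 23.6 and 17.6 TPM and 4.55 and 3.63 TPM (limma: -2.08 ± 0.208 SE, adjusted p = 0.000437), and Nkx6-1, of the ventral tube, at 15.5 and 13.9 TPM and 2.62 and 2.46 TPM. Every sample at 3 h was below every untreated sample in these 4 genes. In Olig2 the samples labelled wild type stood at 10.8 and 9.73 TPM untreated and 11.02 and 8.68 TPM at 3 h, and the difference of the responses was -2.7 ± 0.252 SE, limma adjusted p = 0.000926.

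Many regional genes of the brain fell. Of 20 tested, 14 fell and 0 rose, with a median of -1.32, and 8 had a lower response than under the wild-type label. Six3, of the anterior forebrain, stood at 10.3 and 10.8 TPM untreated, 5.84 and 5.5 TPM at 1 h and 1.56 and 1.03 TPM at 3 h (limma: -2.34 ± 0.171 SE, adjusted p = 8.85e-05). Otx1, of forebrain and midbrain, stood at 14.6 and 13.9 TPM, 5.47 and 4.35 TPM and 2.31 and 2.84 TPM (limma: -2.1 ± 0.219 SE, adjusted p = 0.000533). In both genes the samples at 1 h lay between the untreated samples and those at 3 h. The samples labelled wild type were also lower at 1 h than untreated, with Six3 at 5.99 and 5.35 TPM and Otx1 at 6.87 and 6.3 TPM, and stood at 7.84 and 7.05 TPM and 13.7 and 9.87 TPM at 3 h. Lhx2, a factor of the eye field and cortex, stood at 26.3 and 30.1 TPM, 26.5 and 23.6 TPM and 6.98 and 6.8 TPM, with 1 h near the untreated level. Of the list 11, 10, 10 and 10 fell without each sample in turn. Proneural factors, which commit progenitors to neurons, fell in 5 of 10 cases and rose in 1. Neurog2 stood at 8.26 and 8.24 TPM untreated and 1.17 and 1.57 TPM at 3 h (limma: -1.97 ± 0.164 SE, adjusted p = 0.000179), with no overlap. Neurod1, a later factor, was the rise, and lost its call without the 3 h sample numbered 1 (limma adjusted p = 0.0949). Markers of neurons fell in 5 of 19 cases (median -0.57). None of the 5 passed without the untreated sample numbered 2 or without either sample at 3 h.

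Hox genes parted by position. Of 14 anterior Hox genes, of paralog groups expressed from the hindbrain backwards, 9 fell and 0 rose, with a median of -1.13, and 7, 6, 5 and 6 fell without each sample in turn. Hoxa2 stood at 16.7 and 18.1 TPM untreated and 4.03 and 5.65 TPM at 3 h (limma: -1.67 ± 0.178 SE, adjusted p = 0.000598), Hoxb2 at 33.9 and 33.05 TPM and 12.2 and 11.7 TPM (limma: -1.41 ± 0.147 SE, adjusted p = 0.000526), and Hoxb1, of the hindbrain segment rhombomere 4 in textbook maps, at 11.7 and 9.65 TPM and 2.96 and 3.68 TPM (limma adjusted p = 0.0022, and 0.0589 on the 4 samples alone). All 14 had both samples at 3 h below both untreated samples, where 31.6% of all genes did. Posterior Hox genes rose in 4 of 17 cases and fell in 1, and 2, 2, 2 and 3 rose without each sample in turn. Hoxc6 stood at 2.26 and 2.56 TPM untreated and 12.1 and 12.3 TPM at 3 h (limma: 1.95 ± 0.167 SE, adjusted p = 0.000202), but at 18.5 and 20.1 TPM at 1 h and between 10.59 and 11.47 TPM in the untreated and 3 h samples labelled wild type. Hoxc8 stood at 0.9 and 0.83 TPM untreated and 5.4 and 6.82 TPM at 3 h, where the untreated samples labelled wild type held 11.8 and 6.54 TPM. The untreated samples labelled knockout were thus the low ones: summed over the 17 genes they held 34.96 and 47.4 TPM, the 3 h samples 60.9 and 60.5 TPM, and the other 8 samples 125 to 217 TPM. The part of this level in the posterior Hox changes was not tested.

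Signalling pathways of patterning had members that fell, where 5.87% of all genes fell and 6.25% rose. At 3 h under the wild-type label the list medians were -0.07 (hedgehog), -0.15 (Wnt), -0.09 (FGF) and -0.12 (Notch). Of 12 hedgehog genes 6 fell and 0 rose, and the median was -0.76. All 12 had both samples at 3 h below both untreated samples, where 31.6% of all genes did. Their sums were 427.2 and 446.9 TPM untreated, 279.9 and 354.2 TPM at 1 h and 229.2 and 254.9 TPM at 3 h. Under the wild-type label they were 437.6 and 445.1 TPM untreated, 338.1 and 385.8 TPM at 1 h and 425.2 and 405.5 TPM at 3 h. The sums were thus lower at 1 h under both labels. The difference of the 3 h responses was called for 2 of the 12, both lower. Ptch1, the receptor and a target of the pathway, stood at 64.6 and 46.9 TPM untreated, 20.8 and 29.02 TPM at 1 h and 20.6 and 19.4 TPM at 3 h (limma: -1.42 ± 0.232 SE, adjusted p = 0.00538). Ptch1 missed the threshold on the 4 samples alone (limma adjusted p = 0.0547), and 3, 2, 1 and 3 of the list fell without each sample in turn, and 11 with the block. Of 22 Wnt genes 5 fell (3, 3, 3 and 5 without each sample, 11 with the block), among them Wnt1, of the midbrain-hindbrain border and roof plate, at 14.03 and 11.6 TPM and 1.31 and 1.76 TPM (limma: -2.44 ± 0.235 SE, adjusted p = 0.000339). Of 15 genes of FGF signalling 4 fell (2, 2, 1 and 2 without each sample, 9 with the block), among them Fgf15, at 20.04 and 23.4 TPM and 1.88 and 4.13 TPM (limma: -2.56 ± 0.301 SE, adjusted p = 0.00102). In the Notch list 3 genes rose and 3 fell among 16, and 5 fell with the block. The neural Notch targets Hes5 (23.7 and 33.5 to 2.53 and 5.05 TPM) and Hes3 (10.8 and 12.7 to 0.51 and 1.22 TPM) and the glycosyltransferase Lfng (46.9 and 56.1 to 5.58 and 11.7 TPM) fell, while the ligand Jag2 rose (6.09 and 5.53 to 25.8 and 31.8 TPM, limma adjusted p = 0.000339). The receptors Notch1 and Notch3 rose too, and lost their calls without the untreated sample numbered 1 (limma adjusted p = 0.171 and 0.0836) and without the 3 h sample numbered 2 (limma adjusted p = 0.168 and 0.0787).

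Markers of other embryonic tissues did not share one direction, where 6.25% of all genes rose and 5.87% fell. Of 15 neural crest markers 9 fell and 0 rose (median -0.75), Tfap2b among them at 17.2 and 16.4 TPM untreated and 4.81 and 4.2 TPM at 3 h (limma: -1.7 ± 0.158 SE, adjusted p = 0.000288), and 4, 3, 3 and 2 fell without each sample in turn. Under the wild-type label the neural crest median was -0.22, and the difference of the responses was called for 1 of the 15, lower. Of 13 somite markers 3 fell and 1 rose, with 6 falling under the block. Meox2, of the somite, stood at 7.82 and 5.89 TPM and 1.3 and 1 TPM (limma: -1.86 ± 0.203 SE, adjusted p = 0.000677), and Mesp2, of the forming somite boundary, at 0.12 and 0.09 TPM and 4.55 and 3.52 TPM (limma: 2.18 ± 0.257 SE, adjusted p = 0.00104). Cardiac markers rose in 4 of 18 cases and fell in 0 (median 0.6). Myl4, an atrial myosin light chain, stood at 251 and 215 TPM and 388 and 380.4 TPM (limma: 0.72 ± 0.151 SE, adjusted p = 0.0167). Without each sample in turn 2, 0, 0 and 1 cardiac markers rose, and Myl4 lost its call in the last 3 of these fits (limma adjusted p = 0.109, 0.0962 and 0.076). With the block 9 rose and 2 fell. Endothelial markers rose in 3 of 15 cases (median 0.45), with 1, 0, 0 and 0 rises in the same 4 fits and 6 with the block.

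Blood and visceral endoderm markers had positive medians at 3 h, with wide spread among the untreated samples. Erythroid markers rose in 6 of 14 cases (median 1.49). Alas2, the first enzyme of heme synthesis in red cells, stood at 6.63 and 23.2 TPM untreated, 51.3 and 60.9 TPM at 3 h and 20.3 and 30.9 TPM in the untreated samples labelled wild type. Summed over the list the share of all TPM was 0.239% and 0.673% in the untreated samples, 1.62% and 1.5% at 3 h, and 0.548% to 0.88% in the untreated and 3 h samples labelled wild type. At 1 h it was 0.588% and 1.05% under the knockout label and 1.04% and 1.33% under the wild-type label, which at the highest is near the 1.5% at 3 h. The untreated sample numbered 1 was the lowest of all 12, and without it 0 erythroid markers were called, as was so without the 3 h sample numbered 1. The count was 6 without the untreated sample numbered 2, 1 without the 3 h sample numbered 2, and 11 with the block. Visceral endoderm markers had a median of 1.78 with 0 of 12 called (limma; 4 with the block), at sums of 166 and 295 TPM untreated and 395 and 707 TPM at 3 h, against a median of 0.61 under the wild-type label. Of 12 leukocyte markers only 5 passed the filter, and their sums were 3.09 to 7.32 TPM in the 4 samples, so markers of white blood cells were near 0. The 13 transcripts of the mitochondrial genome held 4.58% and 5.71% of TPM untreated and 8.42% and 7.94% at 3 h, and 5.84% and 5.82% against 6.59% and 7.52% under the wild-type label, with 0 called (limma; 3 with the block). TPM are shares of a fixed sum, and the part of these shares in the changes of other genes was not tested.

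**Figure D5:**
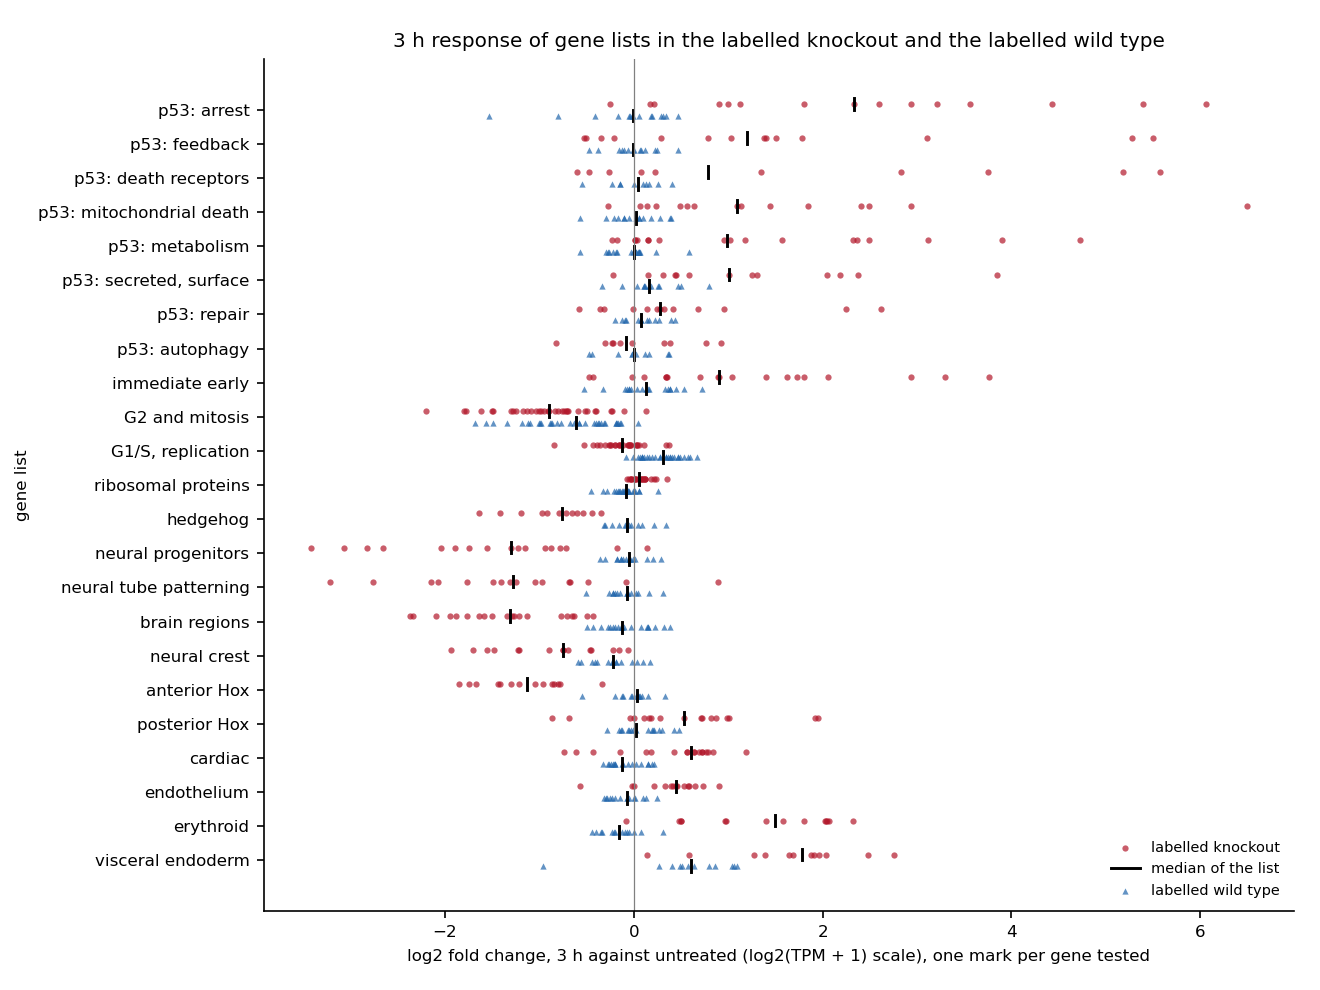
Log2 fold change at 3 h against untreated on the log2(TPM + 1) scale for the tested members of 23 gene lists, 1 mark per gene, red circles for the samples labelled knockout and blue triangles for those labelled wild type, with a black bar at each list's median. The p53 arrest list has medians of 2.33 and -0.01 and the brain region list of -1.32 and -0.12, whereas the G2 and mitosis list is low under both labels (-0.9 and -0.61).

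The plot of the lists sets these groups side by side. The medians of the arrest, feedback, neural progenitor, neural tube, brain region and anterior Hox lists lie apart between the labels, and members of both colours overlap within each list. The median of the repair list is 0.28 under the knockout label and 0.08 under the wild-type label, with Polk and Ercc5 far above it under the former. That of the autophagy list is -0.08 and 0.01. For G2 and mitosis both medians lie below 0.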

How the data were processed

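RNA-seq of mouse embryos (poly(A)-selected, per the labels' protocols) was deposited as 1 table of TPM for 12 samples in 6 groups of 2. The TPM values were made by the authors. The submitters' processing notes name STAR 2.7.3a, RSEM 1.3.3, HTSeq 0.12.3, DESeq2 1.42.1 and GRCm39, with no role given for each. TPM keep no depth, so no counting error was derived. Gene IDs were matched to symbols by ID (52093 of 53647, 97.1%), and 42 tested genes had none.

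Genes with at least 1 TPM in at least 2 of the 12 samples were kept (15535), log2(TPM + 1) was taken, and limma 3.58.1 (R 4.3.3) was fitted to all 6 groups, with a trend of the spread, 6 residual degrees of freedom and Benjamini-Hochberg adjustment over all genes at 0.05. The code was tested on simulated data. Same-numbered samples deviated together from their group means (15 pairs, r 0.327 to 0.796, and 0.573 for the pair of groups compared). The fit with the number as a block (5 degrees of freedom) is therefore printed where it moves the number of called genes by over 1.5 times or turns a direction. Smaller moves under the block are not printed for every list.

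Genes were named by rule: Trp53, the genes of the series title, the 20 largest rises and the 20 largest falls among called genes without overlap of the groups, and up to 6 called members of each list with the smallest p. The 60 lists, the rule and the tests were chosen with earlier results of these data known. Sex-linked transcripts, Vim and the promoters shown were added as descriptions. Alternatives were other pseudocounts, filters and scalings, the block, smaller sets of samples and each sample left out. Promoters came from RefSeq (GRCm38.p6). Figures were drawn with matplotlib 3.10.9 in Python 3.11.15.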

Additional observations from a re-analysis of the deposited data

Results flagged for a closer look

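The 3 h response of 536 genes differed between the labels by a test of the difference itself (limma, adjusted p under 0.05), 403 higher and 133 lower under the knockout label. All 4 genes of the series title were among them, with mouse Foxo3 taken for foxo3b. On the log2 scale the response under the knockout label exceeded that under the wild-type label by 6.0 for Cdkn1a, 5.75 for Ccng1, 1.91 for Foxo3 and 1.48 for Fbxw7. In each of these 4 genes both samples labelled knockout at 3 h lay above all 10 other samples. No group was large enough for a check of single samples that stand out.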

How the results depend on the processing

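The number of genes called at 3 h moved from 1883 to 4534 with the replicate block (1721 higher, 2813 lower), to 466 with only the 4 samples compared, to 713 with only the 6 samples labelled knockout and to 1132 when a change of at least 2-fold was also required (714 higher, 418 lower). It lay between 820 and 1935 with single samples left out. Other pseudocounts, filters and scalings kept it between 1584 and 2108. The count for the difference between the labels moved from 536 to 2078 with the block (930 higher, 1148 lower) and lay between 224 and 484 with single samples left out. Fits on fewer samples have fewer degrees of freedom. The cause of the larger counts under the block was not tested. The change of Trp53 was not past the threshold in any fit: it was -0.2 without the untreated sample labelled knockout and numbered 2, and 1.53 without the one numbered 1. Of 206 named genes called, 130 kept their call without each of the 4 samples compared and 105 under all alternatives run, and the block ended the call of none. Without any read depth, the precision of low genes, which hold many of the rises, cannot be separated from their spread.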

Other observations

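Families of genes grouped by the start of their symbol alone, chosen after their values were seen, extend the description of the developmental genes. Other genes that share only that start, such as antisense transcripts, can be among them, and membership of a protein family was not checked. Some of these groups, named after patterning factors, held many genes that fell at 3 h under the knockout label. By the start of the symbol, 6 of 7 genes fell in the Six3 group and 7 of 10 in Pax. In Sox 8 of 17 fell, in Fox 14 of 35 and in Dlx 4 of 6. The Six3 group is named here after a member and holds every tested gene whose symbol starts with the same letters. Of all genes 5.87% fell. In the Sox and Fox families 1 and 3 genes rose. Others were more mixed: of 12 Nkx genes 3 fell and 1 rose, of 37 Hox genes 10 fell and 5 rose, and of 9 Tbx genes 1 fell and 1 rose. The median log2 changes of the Six3, Pax, Sox, Fox and Dlx families were -1.76, -1.08, -0.95, -0.56 and -0.95, and under the wild-type label -0.14, -0.07, -0.03, -0.09 and -0.28. In the Six3, Pax and Dlx families 0 rose. Zinc finger genes named Zfp stood close to the background, with 26 of 364 falling (7.14%) and 11 rising (3.02%). Of 36 genes with symbols that start with Col, which include collagens, 5 rose (13.9%, against 6.25% of all genes), 0 fell and the others were not called, with a median of 0.35. Subunits of the mitochondrial ribosome (Mrpl genes) had 0 calls among 51 by limma and a median of -0.18. These families overlap with the lists of the neural tube, brain regions and neural crest, so they are not further evidence of those results.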
